A study of Homo sapiens with 2 samples.

Results

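The Sestrin genes SESN1, SESN2 and SESN3, the stress-induced mTORC1 inhibitor DDIT4 (also called REDD1), and 6 core components and regulators of mTORC1 signalling (DEPTOR, DEPDC5, TSC1, TSC2, RHEB and MTOR) were examined in HEK293T, an established line of human embryonic kidney origin. The 10 genes were taken by name from a list that was drawn up with earlier results of these data known, out of 28117 genes with a RefSeq transcript in the data, and all 10 passed the filter on low values (an average over both libraries of 1 CPM, the count scaled to library size, or more), as did 13750 genes in all. One group of cells received a non-targeting control RNA (GL2) and the other an RNA mimetic of human tRF-3004b, a fragment derived from a transfer RNA. Their libraries are called the control library and the tRF library. Both RNAs carried a 5′ phosphate, were reverse transfected with Lipofectamine RNAiMax at a final 500 nM, and were followed for 120 h before collection. Each group is 1 poly-A library from 1 cell line grown in serum-containing high-glucose medium, so the comparison is between 2 libraries, has no replicate check and carries no p-value.

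mTORC1 is a protein kinase complex on the lysosome that promotes protein synthesis and growth when nutrients and growth factors are plentiful. Amino acids act through the Rag GTPases. The GATOR1 complex, which contains DEPDC5, switches the Rags off, and the Sestrins free GATOR1 by binding its antagonist GATOR2 when leucine is scarce. Growth factors act through the small GTPase RHEB, which activates the kinase MTOR and which the TSC1-TSC2 complex switches off. DDIT4 acts through the TSC complex to restrain mTORC1, and DEPTOR is an inhibitory subunit bound to MTOR itself. DDIT4 and SESN2 are known targets of the stress transcription factor ATF4, and SESN3 of FOXO factors.

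The sequences of both transfected RNAs are shown because bases 2 to 8, in capitals, form the seed with which a small RNA of the microRNA kind pairs with 3′ UTRs.
tRF-3004b mimetic: uCAAAUCUcgguggaaccucca
Control RNA: cGUACGCGgaauacuucgauu
The heptamer complementary to the tRF-3004b seed is AGATTTG in DNA letters. It was searched in the 3′ UTRs of GENCODE 29 transcripts paired with RefSeq transcripts of the 10 genes. None of 32 such transcripts, covering all 10 genes, held it, and none held the heptamer complementary to the control RNA's seed. Among 12215 genes that passed the filter and had a searched 3′ UTR, 14.9% held the tRF-3004b heptamer. The share was 40.3% among genes with a 3′ UTR of at least 3000 bases, a class to which SESN3 (7742 bases) and TSC1 (4887 bases) belong. The 3′ UTRs of the other 8 genes, in the transcript with the highest abundance, ran from 105 bases in TSC2 to 1689 bases in SESN2. A heptamer that is not in these windows says nothing about other modes of pairing.

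Estimated counts totalled 19609933 in the control and 1809193 in the tRF library, a 10.8-fold difference in depth. The shallow library limits the precision of every ratio: the 10 genes had 234 to 4116 counts in the control library but 18 to 408 in the tRF library. Exact 95% intervals of the counts are given in parentheses. They cover counting error only, because no molecular identifiers are named for these reads and the spread between cultures was not sampled. In RNA from a whole culture, fewer cells with a transcript and less of it per cell cannot be told apart. Of 6 genes known from HEK293 cells, the abundant VIM and LIN28B were present in both libraries (1447 and 980 CPM for VIM, 210 and 260 CPM for LIN28B), while PAX2 was barely detected (19 and 2 counts). The 6 went in both directions, from NEFL at 97.8 and 52.9 CPM to INA at 4.06 and 9.57 CPM. Summed, they were at 1771 CPM in the control and 1317 CPM in the tRF library, most of it VIM.

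Levels were compared between genes per transcript length, as TPM, the usual length-scaled abundance. In the control library RHEB had the highest level of the 10, at 240 TPM (232 to 247), followed by DDIT4 at 168 TPM (161 to 175), SESN1 at 64.6 TPM and SESN3 at 39.9 TPM. DEPTOR and MTOR came next at 24.9 and 24.7 TPM, with intervals that overlapped, ahead of SESN2 at 20.7 TPM. TSC1 and TSC2, which form 1 complex, stood at 13.1 and 12.6 TPM and could not be ordered at this depth. DEPDC5 was the lowest at 7.22 TPM. The other neighbours in this order had intervals that did not overlap.

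In the tRF library RHEB was again the highest, at 211 TPM (191 to 232). DDIT4 stood at 30.6 TPM (22.7 to 40.4), with an interval that overlapped those of SESN1 at 32.3 TPM and SESN3 at 20.3 TPM. The level of DDIT4 therefore lay well above every Sestrin in the control library and within the counting error of SESN1 in the tRF library. MTOR followed at 12.03 TPM, DEPTOR at 9.31, SESN2 at 9.18, TSC2 at 8.78, DEPDC5 at 5.08 and TSC1 at 4.77 TPM. Each neighbouring pair from MTOR downward overlapped, so the lower end of the order is not resolved in this library.

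**Figure D1:**
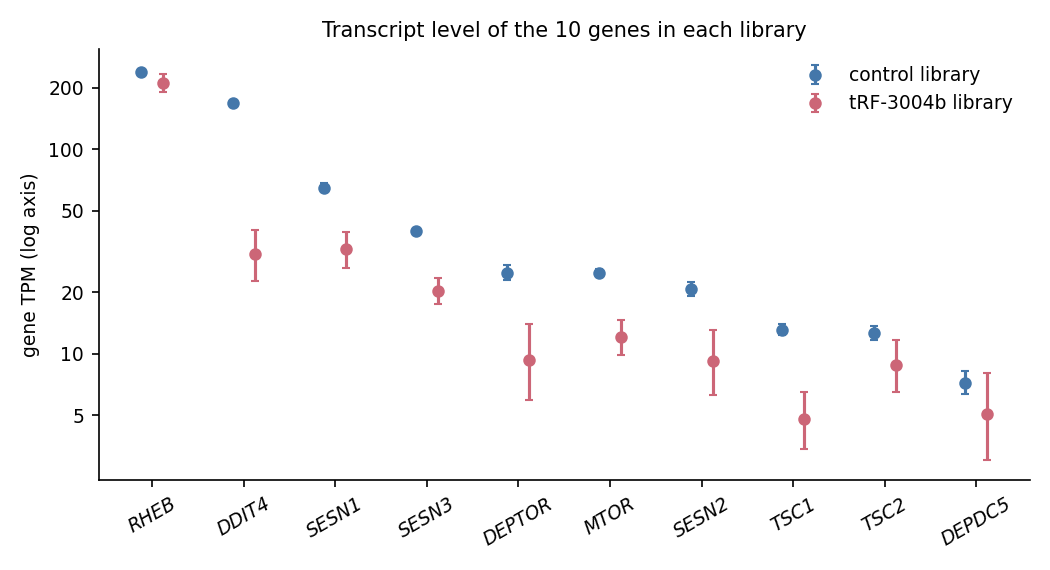
Gene TPM (log axis) of the 10 genes in the control library (blue) and the tRF library (red), with exact 95% counting intervals, ordered by the control level. RHEB is at 240 and 211 TPM, and DDIT4 at 168 and 30.6 TPM.

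Ratios between the libraries were taken on counts scaled to library size, as the log2 of tRF over control with 0.5 counts added. Of the 10 genes, 9 were lower in the tRF library and 1, RHEB, was higher, except that all 10 were lower on a TPM scale and TSC2 was above 0 when centred on transcript length or taken from its main transcript. Of all genes past the filter, 55.5% were lower, or 57.1% of those averaging 10 CPM or more, a level that all 10 genes reached. These shares are on scaled counts. The median of all genes on a TPM scale was -0.38, so most of them were lower there too. DDIT4, TSC1 and DEPTOR were at least 2-fold lower, and none was at least 2-fold higher. On a TPM scale SESN2 joined them at -1.09. The background of genes at least 2-fold lower was 14.3% past the filter and 8.6% from 10 CPM. For 2-fold higher it was 12.3% and 6.13%. On a TPM scale these splits were 17.7% lower and 4.95% higher. Intervals lay wholly below 0 for 7 of the 10, against 28.6% of all genes and 36.7% from 10 CPM, and above 0 for 1, against 23.3% and 26.8%. The median log2 ratio of the 10 genes was -0.66, and that of all 13750 genes was -0.11.

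**Figure D2:**
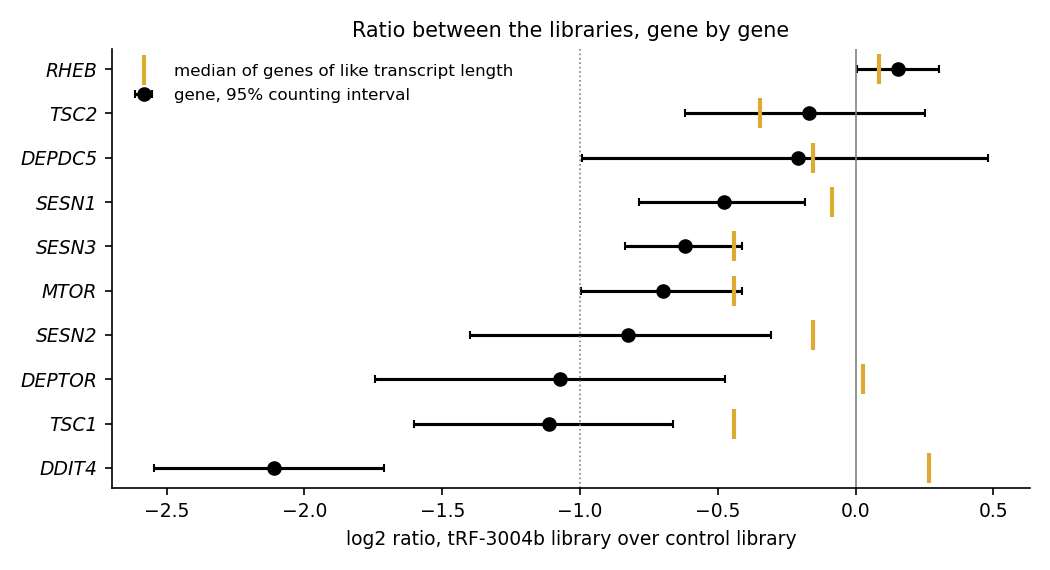
Log2 ratio of the tRF library over the control library for each gene (black points, bars are exact 95% counting intervals). Yellow marks are the median of all genes of like transcript length, and the dotted line marks 2-fold lower. DDIT4 at -2.11 lies furthest from its mark and RHEB at 0.15 is the single point above 0, a sign that it loses on a TPM scale (-0.19).

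DDIT4 (chromosome 10, 72273924 to 72276036, GRCh38) had 2428 counts in the control and 50 in the tRF library, or 122 and 28.1 CPM. It was the furthest from equal of the 10, 4.32-fold lower, with a log2 ratio of -2.11 (-2.55 to -1.71). Its whole interval lay beyond 2-fold lower, as for 1.94% of all genes and 1.87% from 10 CPM. Counted from the lowest ratio, its percentile was 3.56 among all genes past the filter and 0.528 among those averaging 10 CPM or more. The interval did not overlap those of the other genes here except for DEPTOR, whose wide interval reached down to -1.75. DDIT4 has a single RefSeq transcript in the data, and none of the 31-base sequences of its GENCODE 29 transcript occurs in another gene there. The paralogue DDIT4L, which also restrains mTORC1, was far less abundant, with 96 and 7 counts and a log2 ratio of -0.29 (-1.64 to 0.81). With only 2 libraries, likeness to DDIT4 can be measured only by the ratio itself. The 3 genes nearest to it averaging 10 CPM or more, by absolute difference in ratio, were the pseudogene GUSBP4 at -2.10, WDSUB1 at -2.13 and GDF7 at -2.09, each with 13 or fewer counts in the tRF library.

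The DDIT4 promoter is shown because this gene had the ratio furthest from 0. ACGTG is a form of the core letters recognised by hypoxia-inducible factors, and other forms were not searched. The 250 bases before its start in the RefSeq table (GRCh38.p14, plus strand, chr10:72273674-72273923) read as follows, with capitals on ACGTG.
DDIT4 promoter: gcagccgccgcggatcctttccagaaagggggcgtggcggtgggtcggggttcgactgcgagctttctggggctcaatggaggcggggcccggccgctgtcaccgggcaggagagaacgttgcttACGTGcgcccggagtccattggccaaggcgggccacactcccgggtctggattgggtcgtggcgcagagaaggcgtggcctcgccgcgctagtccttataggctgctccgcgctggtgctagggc
ACGTG, searched on both strands, begins 125 bases before the start. Promoter windows (250 bases before to 50 after each start) were found for 9 of the 10 genes, 14 windows in all, and DDIT4, RHEB and TSC2 held ACGTG. Of all 35116 windows in the table, 21.4% did. TGATGNAA, a pattern bound by ATF4 with C/EBP partners, was also searched on both strands. It was present in 3.62% of all windows and in 1 of the 14, that of TSC2 (match at chr16:2047875-2047882, plus strand), shown with the match in capitals.
TSC2 promoter match: gccccgtcacgTGATGCAAggatcgccggc
An ACGTG overlaps the start of the TSC2 match. The DDIT4 and SESN2 windows held no TGATGNAA, which concerns these windows alone. A match is a description of letters, not of binding.

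All 3 Sestrins were lower in the tRF library, each by less than 2-fold on scaled counts and each with an interval below 0. Intervals below 0 were found for 28.6% of all genes past the filter and 36.7% from 10 CPM. Relative to genes of like length SESN2 was at -0.67, SESN1 at -0.39 and SESN3 at -0.18. SESN2, the stress-induced leucine sensor (chromosome 1, 28259518 to 28282491), had 618 and 31 counts, or 30.99 and 17.5 CPM. Its log2 ratio was -0.83 (-1.40 to -0.31). SESN3 (chromosome 11, 95165513 to 95232475) was the most heavily counted Sestrin, with 3331 and 193 counts, or 167 and 109 CPM, and a log2 ratio of -0.62 (-0.84 to -0.41). SESN1 (chromosome 6, 108984309 to 109094846) had 1549 and 99 counts, or 77.7 and 55.7 CPM, and a log2 ratio of -0.48 (-0.79 to -0.19). The intervals of the 3 genes overlapped, so they cannot be ordered at this depth. Summed, the Sestrins were at 276 and 182 CPM, a log2 ratio of -0.60 (-0.77 to -0.44), which does not overlap the interval of DDIT4. None of the 31-base sequences of the searched Sestrin transcripts occurs in another gene.

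Within SESN1 the transcripts went in opposite directions. The transcript NM_001199933 held 92.8% of the gene's counts in the control and 71.8% in the tRF library, with levels of 72.1 and 40.0 CPM. NM_014454, whose paired GENCODE transcript starts upstream on the minus strand (position 109094819, against 109009555 for NM_001199933), was at 5.59 CPM in the control and at 15.7 CPM in the tRF library. Their log2 ratios were -0.85 (-1.22 to -0.51) and 1.48 (0.84 to 2.10). The first rested on 1437 and 71 estimated counts and the second on 112 and 28. These intervals leave out the uncertainty of dividing reads among transcripts, which the files do not give.

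SESN3 showed a smaller divide. NM_144665 was at 84.9 and 74.7 CPM, a log2 ratio of -0.18 (-0.45 to 0.07), and NM_001271594 at 82.2 and 33.9 CPM, a log2 ratio of -1.27 (-1.68 to -0.91). The share of NM_144665 was thus 50.8% in the control and 68.8% in the tRF library. SESN2 has 1 RefSeq transcript in the data.

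Of the TSC complex, TSC1 was lower while TSC2 was not distinguishable from equal. TSC1, the subunit that stabilises the complex (chromosome 9, 132891349 to 132945378), had 996 and 41 counts, or 49.9 and 23.1 CPM. This is a 2.16-fold lower level, with a log2 ratio of -1.11 (-1.60 to -0.66). TSC2, the subunit that switches RHEB off (chromosome 16, 2047985 to 2089491), had 619 and 49 counts, or 31.04 and 27.6 CPM, and a log2 ratio of -0.17 (-0.62 to 0.25). The intervals of the partners lay narrowly apart. TSC2 changed sign, to 0.19, when its most abundant transcript alone was used. TBC1D7, the third subunit, stood at 40.5 and 49.5 CPM, a log2 ratio of 0.29 (-0.04 to 0.61).

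Transcript shares of TSC1 and TSC2 were less certain than the gene sums. In the control library 68.8% of TSC1 counts were assigned to NM_000368 and 27.1% to NM_001162426, transcripts of 8598 and 8595 bases. In the tRF library all 41 counts were assigned to NM_001162426. For TSC2, the share of NM_001318832 was 61.8% (control) and 81.0% (tRF), and its level was 19.2 and 22.2 CPM. Of TSC2, 8 transcripts had at least 1 count in the control and 3 in the tRF library, where the whole gene had 49 counts.

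RHEB, the GTPase that activates mTORC1 (chromosome 7, 151466012 to 151519895), was the most abundant of the 10 genes. It had 4116 and 408 counts, or 206 and 230 CPM. The log2 ratio was 0.15 (0.0039 to 0.30) on scaled counts, but -0.19 with gene TPM and 1 added, so RHEB has no direction that holds under both scalings. Of the 31-base sequences in its transcript, 20.4% also occur in the pseudogenes RHEBP1 and RHEBP2 or in SHLD2P1, so some of its reads may belong to other loci. The related gene RHEBL1 had 13 and 3 counts and a log2 ratio of 1.31 (-1.08 to 3.24).

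MTOR, the kinase (chromosome 1, 11106535 to 11262551), had 1912 and 105 counts, or 95.9 and 59.1 CPM, and a log2 ratio of -0.70 (-0.995 to -0.41). DEPTOR, the inhibitory subunit (chromosome 8, 119873722 to 120050918), had 544 and 23 counts, or 27.3 and 12.9 CPM. Its level was 2.10-fold lower, at a log2 ratio of -1.07 (-1.75 to -0.47). Both were thus lower with intervals below 0, and the intervals overlapped. MTOR has 1 transcript in the data, and 1 of the 2 DEPTOR transcripts held all DEPTOR counts in both libraries. DEPDC5, the GATOR1 subunit that acts on the Rags (chromosome 22, 31753968 to 31908033), had 234 and 18 counts, or 11.7 and 10.1 CPM, and a log2 ratio of -0.21 (-0.99 to 0.48). At 18 counts a difference was not detectable for DEPDC5. Of 18 DEPDC5 transcripts, 6 had at least 1 count in the control and 2 in the tRF library. The non-coding NR_157125 held 16.1% and 61.9% of the counts, which rests on 38 and 11 estimated counts. In addition, 64.1% of the 31-base sequences of its searched transcript occur in other GENCODE genes (Z82190.2, AC109927.2 or PRDM15), so the DEPDC5 values are uncertain.

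**Figure D3:**
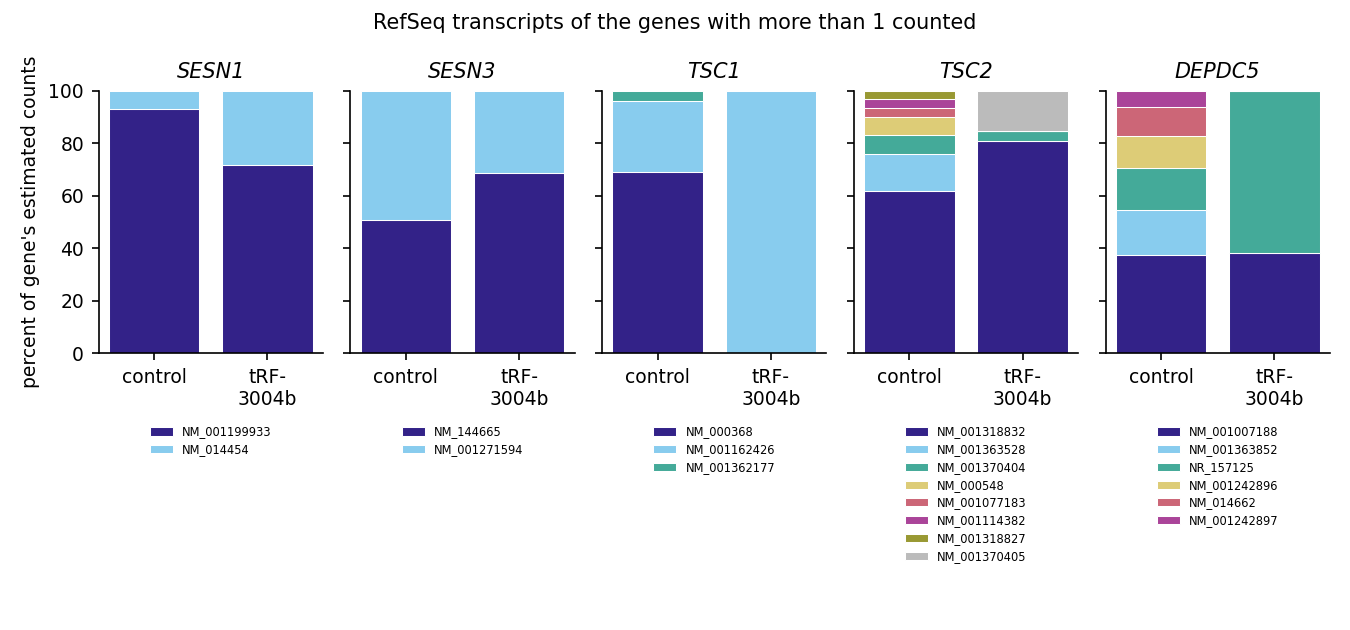
Share of each gene's estimated counts (percent) assigned to its RefSeq transcripts in the control and tRF-3004b libraries, for the 5 genes with more than 1 counted transcript. NM_014454 takes 7.20% of SESN1 in the control and 28.2% in the tRF library, and TSC1 goes from 3 transcripts to 1.

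Over all genes, the ratio moved with transcript length. Split into 10 equal bins by transcript length, genes in the shortest bin had a median of 0.62 and those in the longest a median of -0.44. SESN3, TSC1 and MTOR lie in the longest bin, TSC2 in the next at a bin median of -0.35, and DDIT4 in the second shortest at 0.26. Relative to the median of its bin, DDIT4 was at -2.38, further from its background than on the plain scale. DEPTOR stood at -1.10, SESN2 and TSC1 both at -0.67, and SESN1 at -0.39 relative to their bins. MTOR at -0.26, SESN3 at -0.18 and DEPDC5 at -0.06 came close to the median of genes of their length, and TSC2 stood at 0.18, above it. On this scale 2 of the 10 genes, DDIT4 and DEPTOR, were at least 2-fold lower, against 12.2% of all genes, and 8 lay below 0, against 6870 of 13750, with a median of -0.32.

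**Figure D4:**
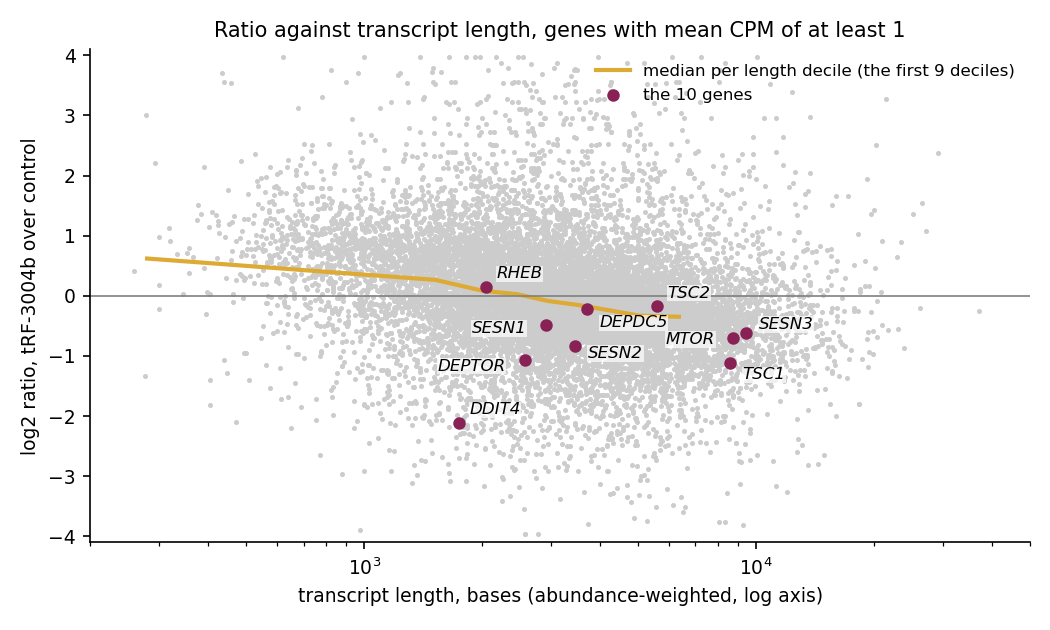
Log2 ratio of the tRF over the control library against transcript length in bases (log axis, weighted by abundance) for genes past the filter (grey, ratios beyond 4 in either direction not drawn), with the median per length bin (yellow, drawn for all bins but the longest) and the 10 genes (purple). The median line falls from 0.62 in the shortest bin, and DDIT4, DEPTOR and SESN2 lie below it while RHEB and TSC2 lie on or above it.

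The wider mTOR pathway did not share a common direction. Of 62 other pathway genes in 13 lists, 59 were measured, with 34 lower and 25 higher. This split was close to that of all genes, of which 55.5% were lower past the filter and 57.1% from 10 CPM. Among the 59 pathway genes, 4 were at least 2-fold lower and 3 at least 2-fold higher, or 6.78% and 5.08%. The backgrounds were 14.3% and 12.3% past the filter, and 8.6% and 6.13% from 10 CPM. On a TPM scale the counts were 8 and 1, against 17.7% and 4.95% of all genes. Their median log2 ratio was -0.18. The lists were chosen with earlier results of these data known.

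Among kinases and adaptors upstream of the TSC complex and mTORC1, 8 of 11 were lower, and 9 on a TPM scale. Relative to genes of like length, 7 lay below 0. Of all genes past the filter, 55.5% were lower, and their median on a TPM scale was -0.38. PRKAB2, a regulatory subunit of the AMP-activated kinase, was at 93.6 and 34.9 CPM with a log2 ratio of -1.42 (-1.81 to -1.06). AKT1, a growth factor kinase that inactivates TSC2, stood at -0.18 (-0.67 to 0.27) and the related AKT2, the highest of this list, at 0.67 (0.17 to 1.14). Both catalytic subunits of the AMP-activated kinase were lower, PRKAA1 at -0.56 and PRKAA2 at -0.82, with intervals below 0.

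The Rag-Ragulator scaffold, which recruits mTORC1 to the lysosome, summed to 302 CPM (control) and 396 CPM (tRF), a log2 ratio of 0.39 (0.28 to 0.51). Of its 9 genes, 6 were higher, against 6123 of all 13750 genes past the filter. With TPM, 4 of the 9 were higher, at a median of -0.16, against -0.38 for all genes. LAMTOR4, a small Ragulator subunit, had 136 and 42 counts and a log2 ratio of 1.79 (1.26 to 2.30), and RRAGA, LAMTOR5 and LAMTOR3 stood at 0.80, 0.77 and 0.60. LAMTOR2 was the lowest at -0.43 (-1.26 to 0.30). Several of these transcripts are short: relative to genes of like length LAMTOR5 was at 0.15, LAMTOR2 at -1.05 and LAMTOR4 at 1.17.

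GATOR1, GATOR2 and KICSTOR, the complexes between the Sestrins and the Rags, had summed log2 ratios of -0.45, -0.03 and -0.49. Within GATOR1, NPRL2 was the lowest at -0.65 (-1.48 to 0.07) and DEPDC5 the highest. GATOR2, the partner that Sestrins bind, ran from WDR59 at -0.88 (-1.37 to -0.43) to SEC13 at 0.64 (0.33 to 0.94). In KICSTOR the highest was ITFG2 at 0.15, with 142 and 14 counts. All 3 genes of the folliculin complex, which acts on the Rags, were lower, at -0.94 for FNIP2, -0.88 for FLCN and -0.48 for FNIP1. Their intervals lay below 0, as for 28.6% of all genes and 36.7% from 10 CPM. Relative to genes of like length they were at -0.60, -0.73 and -0.13. Among the other amino acid sensors, the lysosomal SLC38A9 and SAMTOR stood at -0.13 and 0.00, and CASTOR2 was the highest at 0.39 (-0.56 to 1.23). CASTOR1 had 19 and 0 counts and was not measured by the filter.

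Among the other subunits of mTORC1, RPTOR, which binds substrates, was at 15.0 and 15.2 CPM, a log2 ratio of 0.01 (-0.61 to 0.58), an interval that overlaps those of MTOR and DEPTOR. AKT1S1, a second inhibitory subunit, had 109 and 24 counts and a log2 ratio of 1.30 (0.60 to 1.95), while DEPTOR was lower. MLST8 stood at 0.49 (-0.09 to 1.04). In mTORC2, the sister complex, RICTOR was the lowest at -0.40 (-0.69 to -0.12) and PRR5, with 30 and 3 counts, the highest at 0.16. RICTOR is in the longest length bin and was at 0.04 relative to its median.

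Of 12 measured mTORC1 substrates and effectors 8 were lower and 4 higher, or 9 and 3 on a TPM scale. Relative to genes of like length the split reversed, with 4 below 0, 8 above 0 and a median of 0.10. Of all genes past the filter, 55.5% were lower, and their median on a TPM scale was -0.38. GRB10, an adaptor that is an mTORC1 substrate, was at 126 and 44.5 CPM with a log2 ratio of -1.50 (-1.84 to -1.17). LPIN1, a lipid phosphatase controlled by mTORC1, was at 35.2 and 17.5 CPM, a log2 ratio of -1.01 (-1.58 to -0.49). The translation factor EIF4E stood at 0.86 (0.74 to 0.97) and the kinase gene RPS6KB2, the highest, at 0.88 (0.12 to 1.57). RPS6KB1 was at -0.26 (-0.48 to -0.04), but at 0.07 relative to genes of like length. The translation repressors EIF4EBP1 and EIF4EBP2 stood at -0.49 and -0.12, but at -1.11 and 0.32 relative to genes of like length. These are transcript levels, and the activity of mTORC1 was not measured.

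**Figure D5:**
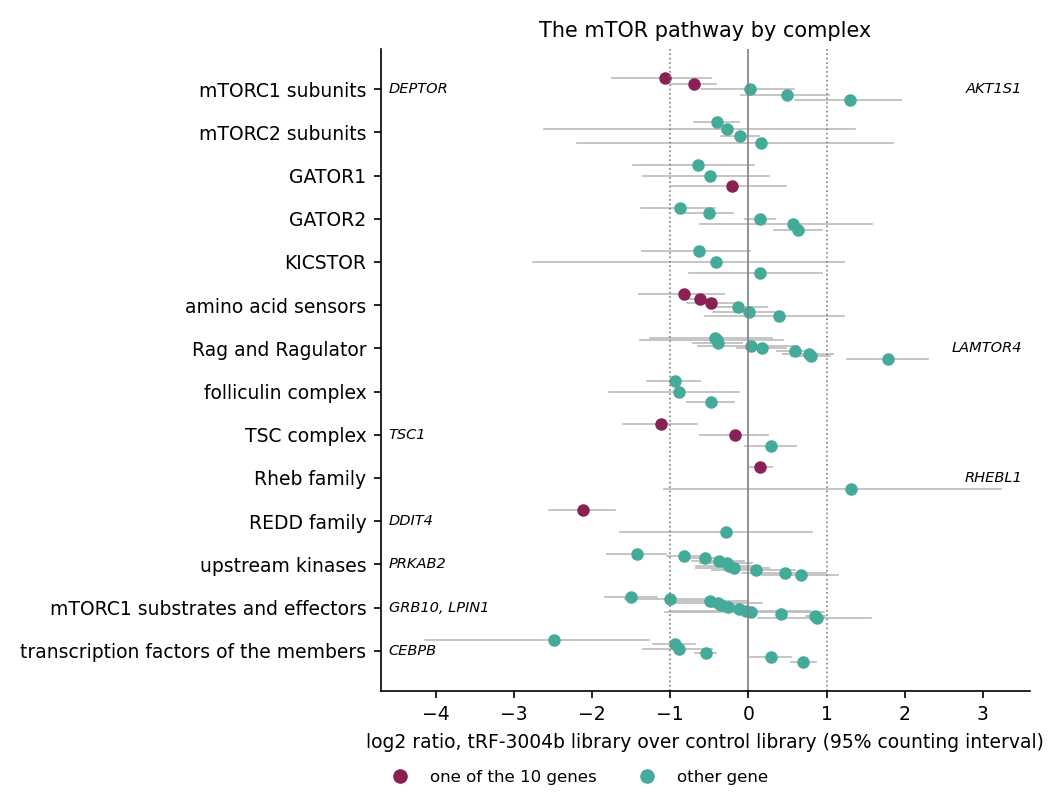
Log2 ratio of the tRF over the control library for measured genes of each pathway list (points, grey bars are 95% counting intervals), with the 10 genes in purple and others in green, and dotted lines at 2-fold. Names are given for genes at least 2-fold lower (left) or higher (right), and a few genes of the lists are not drawn, DDIT4 at -2.11 and LAMTOR4 at 1.79 being the furthest among pathway genes.

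Of the transcription factors known to act on the Sestrins and DDIT4, 4 of 7 were lower, and 6 on a TPM scale. The share of all genes past the filter that were lower was 55.5%, and their median on a TPM scale was -0.38. ATF4 was at 381 and 261 CPM, and its ratio is set beside those of its targets here: -0.55 (-0.69 to -0.41), against -2.11 for DDIT4 and -0.83 for SESN2. CEBPB, a C/EBP family factor, had 319 and 5 counts and a log2 ratio of -2.49 (-4.14 to -1.27). FOXO1 and FOXO3 stood at -0.89 and -0.94, both with intervals below 0, beside -0.62 for SESN3. HIF1A, the highest of this list and an inducer of DDIT4 in low oxygen, was at 0.71 (0.54 to 0.86), beside -2.11 for DDIT4. NFE2L2 stood at 0.29 (0.03 to 0.54). All of these values are transcript levels, and the activity of the factors was not measured. Their part in the values of the Sestrins and DDIT4 was not tested.

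Markers of other cell types were higher in the tRF library at low levels. Summed levels (control, then tRF) were 12.3 and 95.1 CPM for 6 fibroblast markers, 10.5 and 36.6 CPM for 6 epithelial markers, and 3.31 and 30.4 CPM for 6 blood cell markers. All 6 fibroblast, 4 measured epithelial and 5 measured blood cell markers were higher, except for 1 fibroblast marker on a TPM scale. Some passed the filter only through the tRF library, such as KRT13 (0.10 and 3.94 CPM) and DCN (0.75 and 19.1 CPM). The tally is therefore partly set by the filter. Intervals lay above 0 for 5, 3 and 5 of these markers, against 23.3% of all genes past the filter. Those of PDGFRA (-1.29 to 1.42) and EPCAM (-0.40 to 1.69) held 0. KRT5 had 0 counts in both libraries. Their part in the values of the 10 genes was not tested.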

How the data were processed

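Poly-A RNA of 2 libraries was sequenced with a directional kit, per the labels' protocols. Abundances come from kallisto 0.46.1, with GRCh38 as build, per the submitters' processing notes. Per the file headers, the authors deposited an estimated count, a TPM value, a length and an effective length for each of 70866 RefSeq transcripts. For the transcript release and strand setting: not given in the sources used here. Deposited TPM values keep no depth.

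Estimated counts and TPM were summed per gene symbol, and counts were rounded to whole numbers. Names came from RefSeq (70245 transcripts) and GENCODE 29 (293). The 328 unnamed transcripts held 0.0723% of control and 0.0713% of tRF-3004b counts and were left out. Library sizes were scaled with TMM factors (edgeR 4.0.16, R 4.3.3). Log2 ratios had 0.5 counts added in proportion to library size, and intervals are exact conditional Clopper-Pearson 95% intervals without them. Having 1 library per group, the comparison has no spread to test against, so edgeR served for scaling alone. The interval computation was tested on simulated data. Sequence matches used Python 3.11.15, with RefSeq promoters on GRCh38.p14 and 31 bases as the word for shared sequence.

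The 10 genes and all lists were chosen with earlier results of these data known. Genes named were the 10, the lowest and highest of each list, those past 2-fold, and the 3 nearest to DDIT4; a few further pathway genes were named after their values were seen. SAMTOR entered the list under its older symbol BMT2. The alternatives tried were scaling by totals, DESeq2 1.42.0 size factors, 5 counts added, gene TPM with 1 added, the most abundant transcript, centring on length bins, and other filters. Some list members enter the counts but are not reported here by name.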

Additional observations from a re-analysis of the deposited data

How the results depend on the processing

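Under total counts, DESeq2 size factors or 5 counts added, every one of the 10 genes kept its sign and stayed inside its counting interval. Over 60 values of single genes under 6 alternatives, 52 stayed inside that interval, 2 of them (TSC2) with the other sign, and 8 left it, 1 of them (RHEB) with the other sign. With gene TPM and 1 added, the median of all genes went from -0.11 to -0.38, the median of the 10 genes was -0.98, and RHEB was at -0.19. On that scale 8 other pathway genes were at least 2-fold lower and 1 higher, against 17.7% and 4.95% of all genes. With the most abundant transcript alone, TSC2 was at 0.19, TSC1 had 685 and 0 counts, and 8 other pathway genes were at least 2-fold lower and 4 higher, against 18.3% and 18.8% of all genes. Centred on length bins, TSC2 was at 0.18 and the median of the 10 was -0.32. With a mean CPM of at least 10, a filter chosen after seeing the data, 1 other pathway gene was at least 2-fold higher. Of all genes past that filter, 6.13% were. Here fewer genes were tested; for the other changes the cause was not tested. DDIT4 ranged from -2.42 to -2.08 over these alternatives. No paired analysis was possible because each group has 1 library. For the same reason no library could be left out.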
